A study of Caenorhabditis elegans with 6 samples.

Results

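Every animal cell moves proteins between compartments with a common set of machines. Small GTPases of the Rab and Arf families mark membranes, coats bud vesicles, tethers catch them, the retromer complex returns receptors from endosomes, and the ESCRT complexes sort cargo into the lumen of endosomes. In Wnt-producing cells of Caenorhabditis elegans the sorting receptor MIG-14, the worm Wntless protein, carries Wnt to the surface and depends on retromer to be recycled. The genes described here are 81 of the 14700 in the count table. They are the names that begin with rab, arf, arl, vps, snx or sec and a number, without rab-3 and arl-13, together with mig-14 and the myotubularin phosphatase genes mtm-3 and mtm-6. The genes were picked by name, with earlier results of these data known, and the omitted rab-3 is a gene that passed the test described below.

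The study was made to find target genes of the canonical Wnt pathway in QR descendants, the cells that the migrating QR neuroblast produces. Control larvae (3 libraries) carried mab-5(gk670), a deletion allele of the Hox gene mab-5, with the transgenes huIs166 and ayIs9. The ΔN-BAR-1 larvae (3 libraries) carried all of these and also huIs179, and the series describes them as making a truncated form of BAR-1, the β-catenin of this pathway, in the Q lineage. The labels do not name the promoters of the transgenes, and both groups carried the mab-5 deletion allele. Transcripts of mab-5 were still counted, at 48, 106 and 22 in control and 71, 63 and 36 with ΔN-BAR-1, and the sources used here do not place these 3′ counts inside or outside the deletion. All larvae were in the first stage and had been fed for 7 hours after arrest, and each library came from a pool of 2000 cells. Separate cultures are not mentioned in the labels, so the p-values below rest on a spread between libraries that may be technical in part.

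Library totals ran from 68431 to 254362 estimated transcripts, with control replicate 3 the shallowest. Transcripts of bar-1 were too few to follow the transgene, at 5 in all control and 15 in all ΔN-BAR-1 libraries, and 3′ counts would show it only if it carried the 3′ end of bar-1. Of 11 Q lineage markers 11 passed the count filter, and 2 were called higher with ΔN-BAR-1 and 0 lower. These were mec-3 (log2 fold change 2.71, edgeR adjusted p = 0.000832) and mig-1 (1.52, edgeR adjusted p = 0.0415). The marker lin-32 was lower but did not pass (−1.24, edgeR adjusted p = 0.0685). Fold changes of 6 markers were above 0 and of 5 below. Of 19 body wall muscle markers 12 passed the count filter. Among them unc-54 (343 to 3182 transcripts) and act-4 (418 to 1138) were abundant. Others were present at lower counts, such as mlc-3 (318 over all libraries) and unc-97 (262). Of the 7 below the filter, myo-3 never exceeded 1 and hlh-1 was at 0. The intestinal genes elt-2 and ges-1 were also at 0. Of 11 hypodermis and seam markers dpy-7, dpy-13 and rol-6 were at 0, but col-10 (471 transcripts over all libraries), lin-26 (241), mup-4 (120) and grd-10 (55) were present, and the list summed to 860 to 1221.5 CPM in control and 294 to 1342 with ΔN-BAR-1. The summed level of 20 neuronal and synaptic markers was 2770 to 3410 CPM (transcripts scaled to the library total) in control. With ΔN-BAR-1 it was 5444 to 9496 CPM. Of the 18 tested, 4 were called higher, where 1.57% of all tested genes were called higher. All 18 had fold changes above 0 (median log2 fold change 1.33), and 13 had an unadjusted edgeR p below 0.05. The summed level of 18 cell cycle and replication markers was 9526 to 12123 CPM in control and 5609 to 7071 with ΔN-BAR-1. Of the 16 tested, 1 was called lower, where 0.087% of all tested genes were called lower. All 16 had fold changes below 0, and 11 had an unadjusted p below 0.05. The summed level of 19 body wall muscle markers was 8707 to 17062 in control and 7240 to 21323 CPM with ΔN-BAR-1. Of the 21323 CPM, in ΔN-BAR-1 replicate 3, unc-54 made up 15580. Its count there was at the limit that the molecular identifiers allow, so its level is not resolved. The unc-54 counts of ΔN-BAR-1 replicate 2 (1420) and control replicate 2 (1138) lay near the limit of those libraries (1597.01). These levels and the muscle sums that hold them are poorly resolved too. The part of these cell markers in the values below was not tested. In such pools fewer cells of a type and less RNA per cell cannot be told apart.

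The trafficking genes ranged from abundant to barely seen. Because each transcript is counted once at its 3′ end, a CPM value is a share of molecules and was not divided by gene length. By the mean CPM of all 6 libraries, 9 of the 81 genes lay above 500, 22 between 100 and 500, and 50 below 100. The abundant ones were arf-1.2, sec-61, vps-32.1, rab-1, rab-11.1, arl-8, rab-10, arf-3 and rab-5. Transcripts of 63 genes were found in all 6 libraries, and rab-11.2 was the only one with none. In none of the 6 libraries did these genes use more than 190 of the possible molecular identifiers, so none had reached the ceiling at which the counts stop being informative. Enough counts for a test were present for 42 genes, and the other 39 are given below by their counts.

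**Figure D1:**
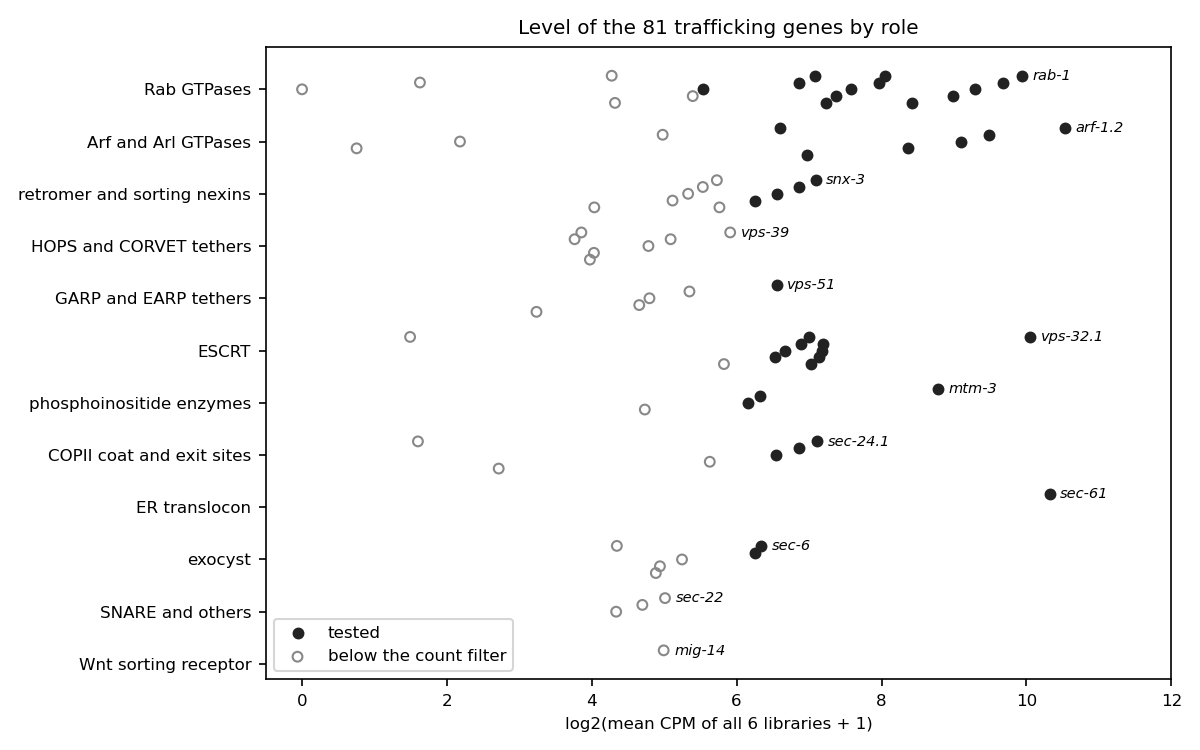
Level of each of the 81 genes by role, as log2 of the mean CPM of all 6 libraries plus 1. Filled points are the 42 genes tested, open points the 39 below the count filter, and the name is that of the highest gene of each role. The tethers, the exocyst, the SNARE group and mig-14 lie low, and single genes such as vps-32.1, mtm-3 and sec-61 stand above the rest.

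No trafficking gene passed the test for a difference between ΔN-BAR-1 and control libraries. Of the 42 tested, 0 passed an adjusted p of 0.05 (edgeR quasi-likelihood test, Benjamini-Hochberg over 3447 genes), against 1.65% of all tested genes. By direction, 0 were called higher with ΔN-BAR-1 and 0 lower, where 1.57% of all tested genes were called higher and 0.087% lower. At an unadjusted p below 0.05 there were also 0 of 42, against 11.6% of all tested genes (8.21% higher and 3.42% lower), and neither DESeq2 nor limma-voom called any. The count at an unadjusted p below 0.05 was 2 without ΔN-BAR-1 replicate 1 (vps-32.1 and vps-4), 1 without replicate 2 (vps-34) and 2 without replicate 3 (arf-6 and rab-5). The log2 fold changes ran from −0.69 for arf-6 to 0.96 for vps-34. Thus 0 of 42 lay beyond 2-fold, compared with 10.5% of all tested genes. A level above that of control was more frequent than one below, with 30 genes above 0 and 12 below and a median of 0.16, where the median of all tested genes was 0.00031. Beyond this, 17 of the 42 had a 95% interval that lay wholly within 2-fold either way, as did 20.2% of all tested genes. They include rab-1, rab-10, rab-11.1, rab-14, arf-3, sec-61, mtm-3 and snx-3. For the other 25 a change of 2-fold was within the interval. Changes of that size were mostly beyond the reach of the test, which recovered 10.9% of 92 genes changed 2-fold and 77.3% of 97 changed 4-fold in counts simulated for this comparison.

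**Figure D2:**
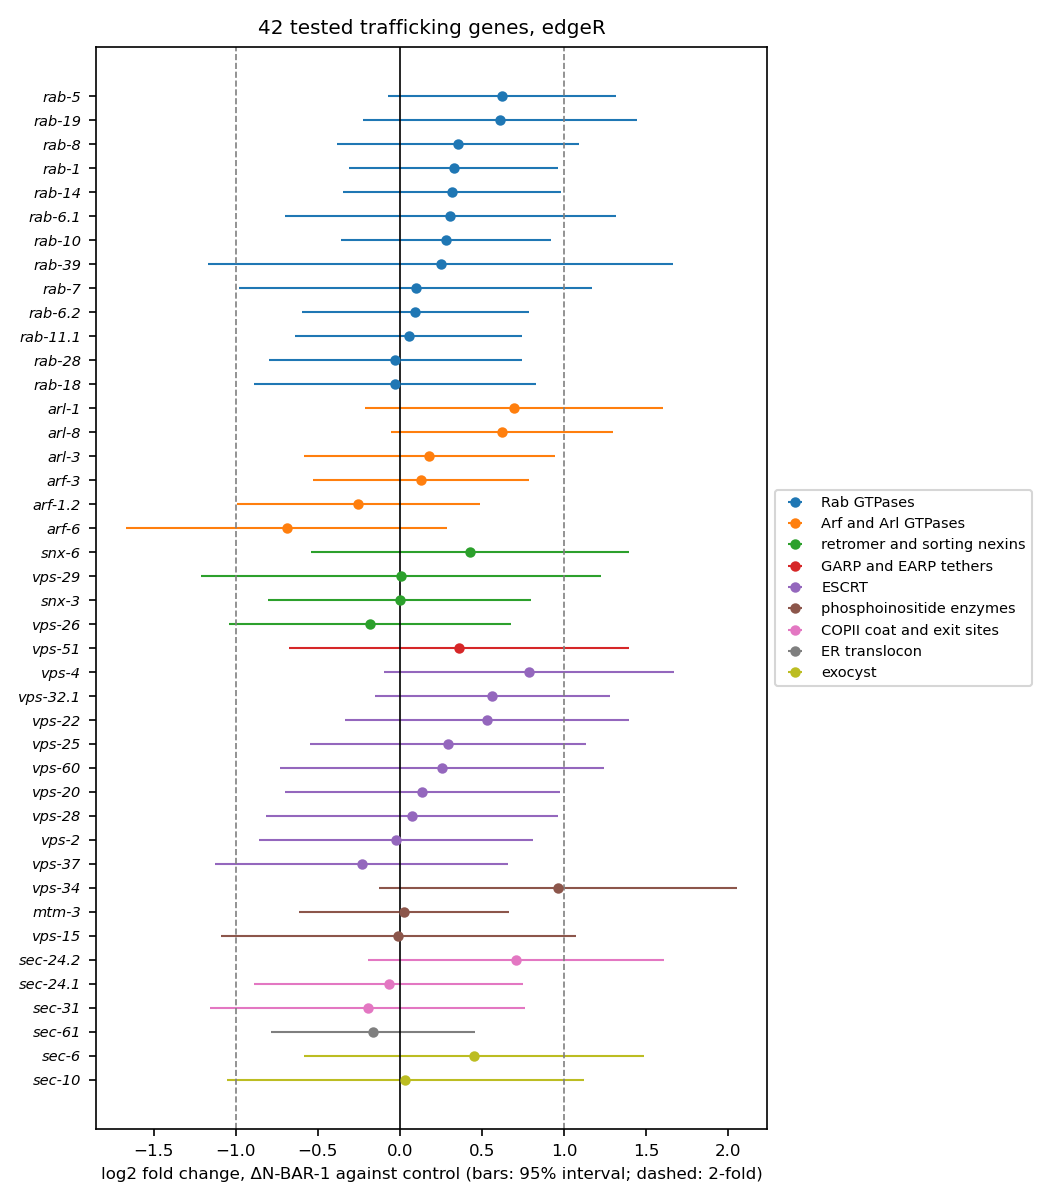
Log2 fold change of the 42 tested genes in ΔN-BAR-1 against control libraries (points) with 95% intervals (bars), ordered and coloured by role. Dashed lines mark 2-fold. Every interval includes 0, and all points lie between −0.69 and 0.96.

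The Rab GTPases were the largest family, with 18 genes of which 13 were tested. Of these 11 had fold changes above 0 and 0 passed the test, with a median of 0.28. The highest of the 18 was rab-1, which directs traffic from the endoplasmic reticulum to the Golgi. Its level was 973, 744 and 889 CPM in control replicates 1 to 3 and 913, 1078 and 1268 in ΔN-BAR-1 replicates 1 to 3. The groups overlapped, and the log2 fold change was 0.33 ± 0.30 (SE, n = 3 each; edgeR adjusted p = 0.788). The recycling endosome gene rab-11.1 followed at 808 ± 272 CPM in control and 823 ± 201 with ΔN-BAR-1 (SD, n = 3 each). Its paralogue rab-11.2 had 0 transcripts against 793 of rab-11.1 over all libraries. Both genes of the Golgi GTPase Rab6 were present, rab-6.1 making up 21.2% to 46.9% of their joint counts. Counts of near-identical paralogues depend on how reads were assigned, a step that the labels and file headers leave unstated.

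The endosomal Rab genes differed in how steady they were. For rab-5, which marks early endosomes, the control libraries held 412, 308 and 494 CPM and the ΔN-BAR-1 libraries 756, 671 and 406. Replicates 1 and 2 of ΔN-BAR-1 were above every control library and replicate 3 was not. The log2 fold change was 0.62 ± 0.33 with a 95% interval of −0.07 to 1.32 (edgeR adjusted p = 0.520). The late endosome gene rab-7 stood at 149, 123.4 and 115 CPM in control libraries and at 65.2, 71.2 and 279 with ΔN-BAR-1. Its near-zero log2 fold change of 0.09 ± 0.51 joined values below and above the whole control range, and it was −0.96 without ΔN-BAR-1 replicate 3 (edgeR adjusted p = 0.512). The gene rab-10, known in worms for basolateral recycling and dendrite growth, was even, at 618, 563 and 511 CPM in control and 576, 620 and 867 with ΔN-BAR-1. Its log2 fold change was 0.28 ± 0.31 (edgeR adjusted p = 0.840).

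Other Rab genes lay lower. The exocytic GTPase gene rab-8 averaged 218 ± 57.2 CPM in control and 281 ± 67.9 with ΔN-BAR-1 (log2 fold change 0.36 ± 0.35, edgeR adjusted p = 0.806). Levels of rab-19 were 156, 111 and 82.3 CPM in control libraries and 136, 193 and 220 with ΔN-BAR-1, overlapping between the groups (0.61 ± 0.40, edgeR adjusted p = 0.648). For rab-14, rab-18 and rab-28 the 95% intervals lay within 2-fold. In rab-18, which is known from lipid droplets, control replicate 2 alone had 313 CPM, with 85.2 to 206 elsewhere. The vesicle GTPase gene rab-3, which the choice of genes leaves out, is the contrast within the family. It rose from 136 ± 68.9 to 532 ± 210 CPM (log2 fold change 1.97 ± 0.42, edgeR adjusted p = 0.0167).

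Among Arf and Arl GTPases 6 of 9 genes were tested, 4 of them above 0, and 0 passed the test. The coat-recruiting Arf gene arf-1.2 was the most abundant of all 81, at 1271, 1238 and 2339 CPM in control and 1565, 1652 and 808 with ΔN-BAR-1. The highest and the lowest library thus both carried replicate number 3, and the log2 fold change was −0.25 ± 0.36 (edgeR adjusted p = 0.882). Its paralogue arf-1.1 gave 4 transcripts in all, against 1400. The smallest unadjusted p among the 42 genes (0.0698) belonged to arl-8, whose product moves lysosomes and, in worm neurons, synaptic vesicle precursors. It had 568, 592 and 527 CPM in control and 1239, 686 and 685 with ΔN-BAR-1. All ΔN-BAR-1 libraries were above all control libraries, with replicate 1 far above the rest. The log2 fold change was 0.62 ± 0.33 (edgeR adjusted p = 0.494).

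The Golgi gene arl-1 averaged 91.5 ± 29.3 CPM in control and 157 ± 54.6 with ΔN-BAR-1, with overlap (log2 fold change 0.69 ± 0.44, edgeR adjusted p = 0.625). The plasma membrane GTPase gene arf-6 was the lowest of the 42 by fold change, at −0.69 ± 0.47 (edgeR adjusted p = 0.668). Control libraries held 156, 140 and 49.4 CPM of it and ΔN-BAR-1 libraries 59.8, 55.9 and 113. Control replicate 3, at 3 transcripts, lay below every other library. Without replicate 3 of both groups the log2 fold change of arf-6 was −1.38 (edgeR adjusted p = 0.383). The ciliary GTPase gene arl-3 (190 to 519 CPM) and arf-3 (420 to 692 CPM) overlapped fully between groups. The ciliary gene arl-6 was seen in 1 library, as a single transcript.

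**Figure D3:**
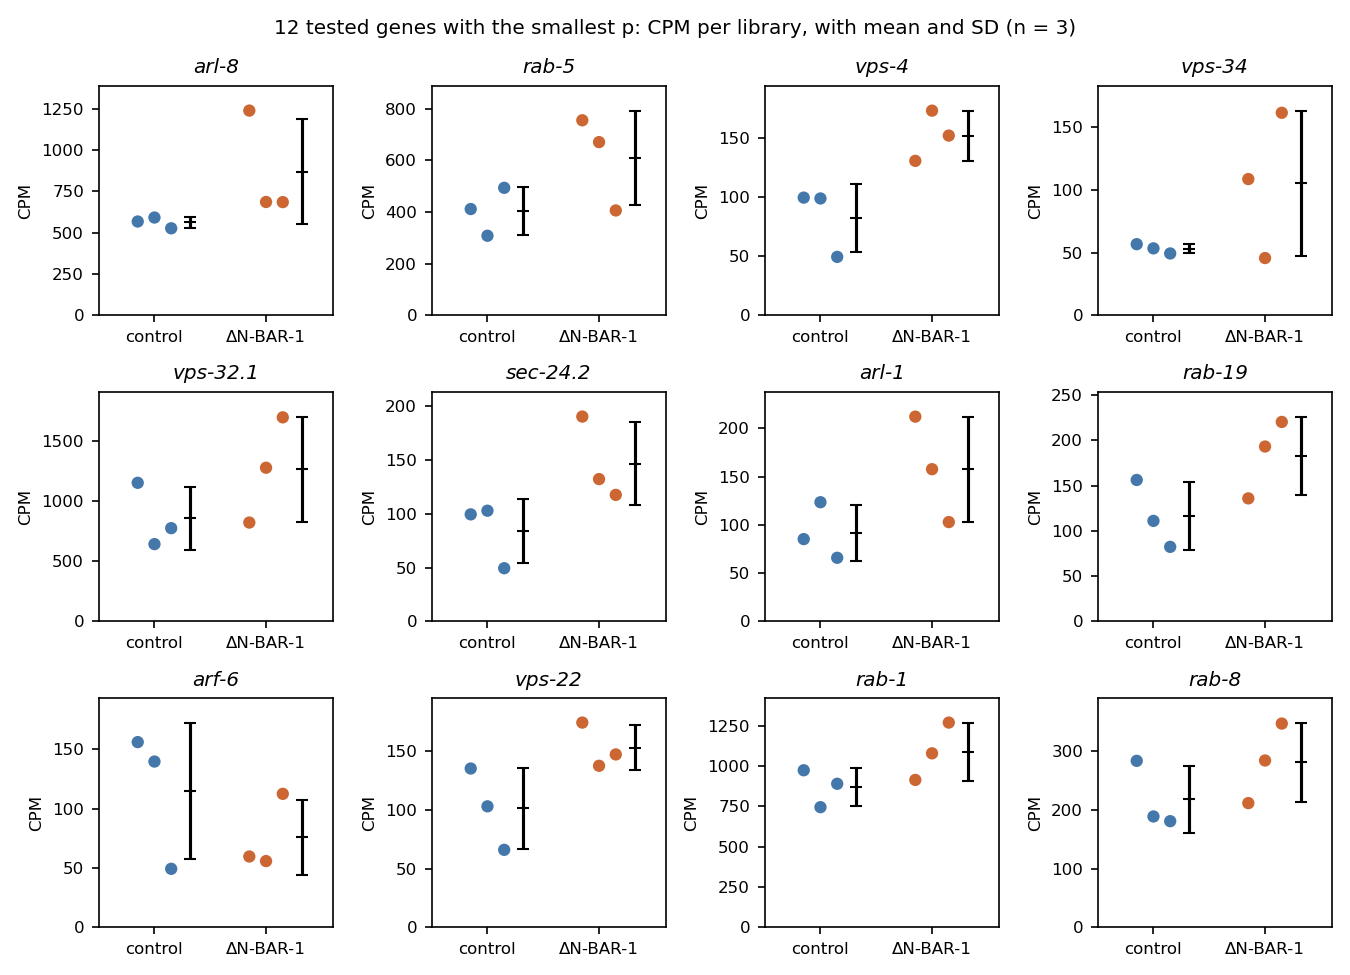
CPM in each library for the 12 tested genes with the smallest p (points; blue control, orange ΔN-BAR-1), with the mean and SD of each group (n = 3) beside them. The groups lie apart for arl-8, vps-4, sec-24.2 and vps-22 and overlap for the other 8 genes.

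Of the Wnt sorting route, which acts in Wnt-producing cells, mig-14, vps-35 and mtm-6 fell below the filter in these pools of QR descendants. The genes vps-26, vps-29 and snx-3 were tested. Transcripts of mig-14 numbered 4, 12 and 1 in control replicates 1 to 3 and 1, 11 and 6 in ΔN-BAR-1 replicates 1 to 3, too few to test. That is 31.4 ± 16.6 CPM against 30.2 ± 25.3, with the values of both groups intermixed. Retromer has 3 core subunits. The subunit gene vps-26 had 128, 111 and 132 CPM in control and 103, 91.5 and 127 with ΔN-BAR-1, the steadiest of the 3 (log2 fold change −0.18 ± 0.41, edgeR adjusted p = 0.932). For vps-29 the values were 78.1, 90.5 and 49.4 against 70.7, 127 and 34.3 CPM (0.0034 ± 0.58, edgeR adjusted p = 0.999). The gene of the large subunit, vps-35, had 6, 9 and 3 transcripts in control and 14, 10 and 13 with ΔN-BAR-1, below the filter. As CPM, 42.6, 37.02 and 49.4 stood against 76.1, 50.8 and 63.7. These groups did not overlap, but the nearest values were 49.4 and 50.8.

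Sorting nexins bind membranes beside retromer. In worms SNX-3 is the one known to act in MIG-14 recycling. Its gene snx-3 had 128, 197 and 65.9 CPM in control and 125, 183 and 113 with ΔN-BAR-1, and the log2 fold change was −0.0027 ± 0.38 (edgeR adjusted p = 0.998). The 95% interval was −0.80 to 0.80. The gene snx-6 stood at 84.4 ± 41.1 and 102 ± 13.6 CPM (0.43 ± 0.47, edgeR adjusted p = 0.839). Below the filter, snx-1 had 16 transcripts in control and 21 with ΔN-BAR-1, and snx-27, whose product recycles membrane receptors, had 13 and 26. The whole group of 10 retromer and sorting nexin genes had a summed level of 568 to 662 CPM in control and 651 to 745 with ΔN-BAR-1, which overlapped.

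Phosphoinositide enzymes set the lipid that endosomal proteins bind. The kinase gene vps-34 had the highest fold change of the 42. Control libraries were tightly grouped at 56.8, 53.5 and 49.4 CPM, resting on 8, 13 and 3 transcripts. The ΔN-BAR-1 libraries spread over 109, 45.7 and 162 CPM, on both sides of the control values. The log2 fold change was 0.96 ± 0.52, with a 95% interval of −0.13 to 2.05 (edgeR adjusted p = 0.531). Its partner gene vps-15 had a log2 fold change of −0.01, with a 95% interval of −1.09 to 1.07 and 34.3 to 120 CPM over the 6 libraries. The difference between these 2 genes was not tested. Of the phosphatases, mtm-3 was abundant and even, at 526, 387 and 395 CPM in control and 451, 407 and 475 with ΔN-BAR-1. Its log2 fold change was 0.02 ± 0.31, with a 95% interval of −0.61 to 0.66 (edgeR adjusted p = 0.988). The gene mtm-6, whose product is known to act in MIG-14 recycling in worms, had 4, 14 and 1 transcripts in control and 2, 5 and 3 with ΔN-BAR-1.

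ESCRT genes were well covered, with 9 of 11 tested, 7 of them above 0, and 0 passed the test. The ATPase gene vps-4, which takes ESCRT filaments apart, had 99.4, 98.7 and 49.4 CPM in control and 130, 173 and 152 with ΔN-BAR-1. The groups lay apart, and the log2 fold change was 0.79 ± 0.42 (edgeR adjusted p = 0.522). Groups that lie apart with ΔN-BAR-1 higher were found in 4 of the 42 genes (arl-8, vps-4, sec-24.2 and vps-22) and in 10.4% of all tested genes, so the share is near the background. With ΔN-BAR-1 lower there were 0 of 42, against 7.08% of all tested genes.

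The filament subunit gene vps-32.1 was the most abundant ESCRT gene, at 1150.5, 642 and 774 CPM in control and 821, 1276 and 1694 with ΔN-BAR-1 (log2 fold change 0.56 ± 0.34, edgeR adjusted p = 0.605). It had 1113 transcripts over all libraries against 2 of its paralogue vps-32.2. The ESCRT-II gene vps-22 stood at 101.2 ± 34.6 CPM in control and 153 ± 19.02 with ΔN-BAR-1 (0.53 ± 0.41, edgeR adjusted p = 0.722). Of its complex partners, vps-25 had a log2 fold change of 0.29, and vps-36 fell below the filter with 28 transcripts in control and 24 with ΔN-BAR-1. The subunits vps-2, vps-20, vps-28, vps-37 and vps-60 had log2 fold changes between −0.23 and 0.25.

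In the early secretory pathway the translocon gene sec-61 was high and even, with 1442, 1250.3 and 1367 CPM in control and 1044, 1291 and 1278 with ΔN-BAR-1. Its log2 fold change of −0.17 ± 0.30 had a 95% interval of −0.79 to 0.45 (edgeR adjusted p = 0.907). Of 6 genes for the COPII coat and its exit sites 3 were tested and 0 passed. The cargo-binding subunit has 2 genes, and they stood at different places. Levels of sec-24.1 were 149, 140 and 132 CPM in control and 120, 127 and 157 with ΔN-BAR-1 (−0.07 ± 0.39, edgeR adjusted p = 0.971). Those of sec-24.2 were 99.4, 103 and 49.4 against 190, 132 and 118 CPM, lying apart (0.71 ± 0.43, edgeR adjusted p = 0.610). The share of sec-24.1 in the joint counts was 57.6% to 72.7% in control and 38.6% to 57.1% with ΔN-BAR-1. The nearest values, 57.6% and 57.1%, almost met, and the 72.7% rested on 8 and 3 transcripts in control replicate 3. The 95% intervals of the 2 fold changes overlapped (−0.89 to 0.75 and −0.20 to 1.61), and the difference in share was not tested. The coat gene sec-23 gave 2 transcripts in all, and sec-12 of the same group gave 6.

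Tethering complexes were low throughout, and their sums were highest in a single library. The exocyst, which docks vesicles at the plasma membrane, summed over its 6 genes to 220, 267 and 247 CPM in control replicates 1 to 3. In ΔN-BAR-1 replicate 1 the sum was 462 CPM, and in replicates 2 and 3 it was 208 and 211, just below the controls. The 5 genes of the GARP and EARP tethers, which act at the Golgi and on endosomes, gave 114, 214 and 165 CPM in control, 342 CPM in ΔN-BAR-1 replicate 1 and 196 in replicate 3, with replicate 2 between the controls. The 7 genes of the HOPS and CORVET tethers, which act at late and early endosomes, gave 114, 202 and 181 against 299, 96.6 and 157 CPM. For sec-20, sec-22 and vps-45, genes of SNARE proteins and a SNARE regulator, the sums were 21.3, 86.4 and 65.9 against 168, 71.2 and 39.2 CPM. In each of these 4 groups ΔN-BAR-1 replicate 1 was the highest library, and replicates 2 and 3 lay within or below the control range. The COPII group had the same order, at 391, 399 and 313 CPM in control and 533, 381 and 387 with ΔN-BAR-1, and 4 of its 6 genes were highest in ΔN-BAR-1 replicate 1.

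Gene by gene, 16 of the 21 tether, exocyst and SNARE genes were highest in ΔN-BAR-1 replicate 1, among them 5 of 6 exocyst genes. These groups were put together after their values were seen. The same library was the highest for 25.4% of all tested genes and for 29.7% of genes below the filter with at least 10 transcripts. It also had the highest neuronal sum (9496 CPM) and the lowest muscle sum (7240 CPM) of the marker lists. The muscle sum leans on unc-54, at 2272 CPM in this library against 4460 to 15580 elsewhere. Of the tested muscle markers, mlc-1, mlc-2, mup-2 and pat-10 were also lowest in it, but pat-2, unc-97 and unc-112 were highest. The part of this library's makeup in the tether values was not tested. Of the 21 genes only sec-6, sec-10 and vps-51 were tested. The exocyst gene sec-6 had a log2 fold change of 0.45 ± 0.50 (edgeR adjusted p = 0.840), and 0.13 without ΔN-BAR-1 replicate 1. For vps-51, a subunit common to GARP and EARP, it was 0.36 ± 0.50 (edgeR adjusted p = 0.882), and −0.10 without that library. The highest HOPS and CORVET gene, vps-39, had 6, 11 and 3 transcripts in control and 19, 9 and 14 with ΔN-BAR-1, and sec-22 had 1, 9 and 2 against 12, 6 and 3.

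**Figure D4:**
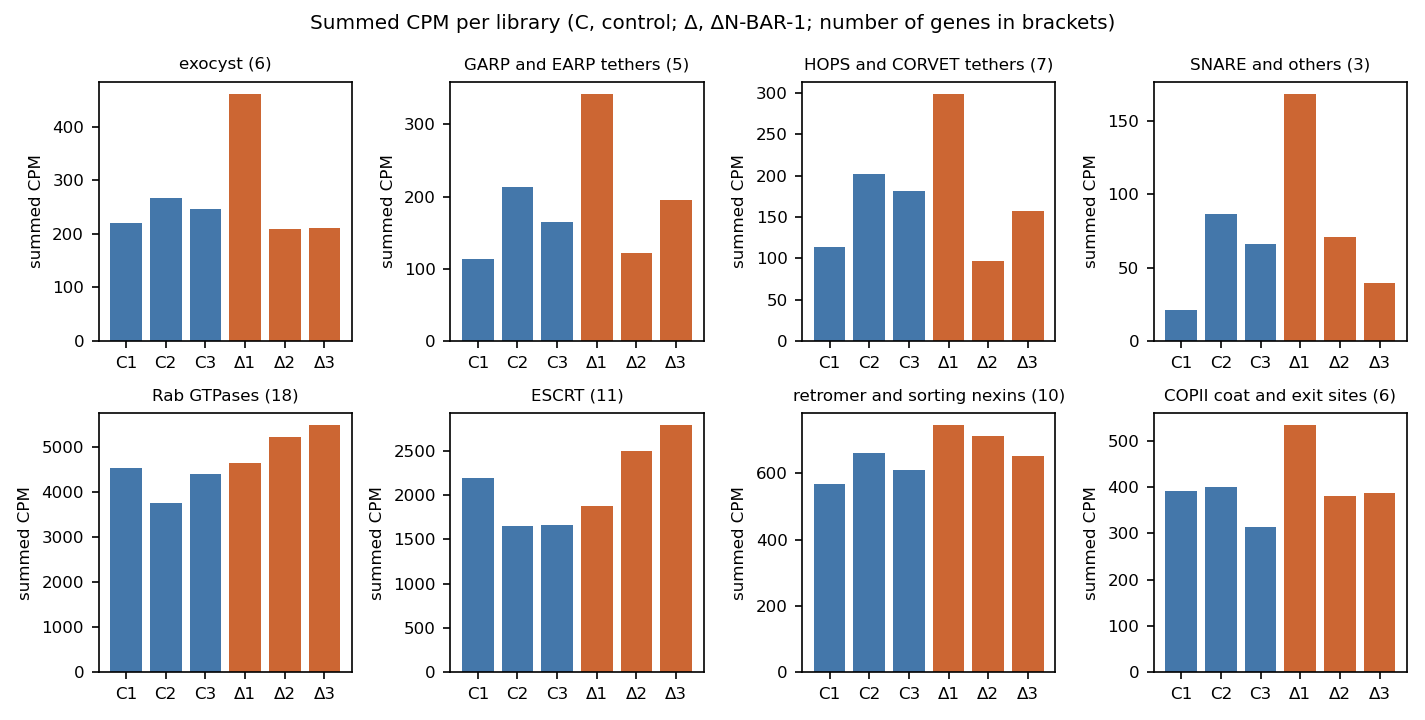
Summed CPM of 8 groups of trafficking genes in each library (bars; C1 to C3, control replicates; Δ1 to Δ3, ΔN-BAR-1 replicates; each panel has its own axis from 0). In the exocyst, GARP and EARP, HOPS and CORVET, and SNARE panels Δ1 is the tallest bar and Δ2 and Δ3 are level with the controls or below them, while the Rab sum runs from 3743 to 4531 CPM in control and from 4626 to 5469 with ΔN-BAR-1.

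The sum of all 81 genes was 13159.6, 12018 and 13571 CPM in control and 14654, 14736.5 and 14630.1 with ΔN-BAR-1. The groups did not overlap, and the means were 12916 ± 804 and 14674 ± 55.8 CPM (SD, n = 3 each). The Rab genes accounted for 4224 ± 422 CPM in control and 5100 ± 432 with ΔN-BAR-1 and the ESCRT genes for 1837 ± 310 and 2388 ± 462. These sums were not tested.

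Among the 39 genes below the filter, 31 had at least 10 transcripts over all libraries. In 4 of them every ΔN-BAR-1 library was above every control library (rab-21, rab-30, vps-35 and vps-50), and in 3 every one was below (snx-13, vps-33.2 and vps-36). Of all genes at this depth 7.88% were above and 4.5% below. These genes were named after their values were seen. The largest contrast in counts was that of rab-21, with 4, 5 and 2 transcripts in control and 11, 9 and 12 with ΔN-BAR-1. The EARP subunit gene vps-50, known in worms for its part in dense-core vesicle maturation, gave 0, 1 and 0 transcripts against 3, 4 and 2. Without a filter none of these genes passed (edgeR adjusted p of at least 0.754 for each member).

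Genes of the same pathways outside the name rule gave 0 calls as well, against the same 1.65% background. Early coat proteins and adaptors had 13 of 13 genes tested and a median log2 fold change of 0.03. For SNARE proteins 9 of 21 were tested with a median of 0.17, for other ESCRT proteins 5 of 7 with 0.08, for endosomal phosphoinositide enzymes 2 of 7 with −0.13, and for Wnt ligands and their acylation 1 of 6 with −0.05. Higher medians belonged to clathrin, adaptor and endocytosis genes, 0.37 with 22 of 27 tested, and to GTPase regulators and effectors, 0.47 with 18 of 38 tested. The latter list also holds the GTPase genes unc-108, aex-6 and evl-20, with log2 fold changes of 0.52, 1.24 and 0.69. At a mean of 1192 CPM over all libraries, unc-108 lay above rab-1 (978). It averaged 981 ± 90.1 CPM in control and 1403 ± 189 with ΔN-BAR-1 (edgeR adjusted p = 0.570).

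In these lists 9 of the 70 genes tested (12.9%) had an unadjusted p below 0.05, all higher with ΔN-BAR-1 and none past the adjusted threshold. Of all tested genes 11.6% had such a p, 8.21% higher and 3.42% lower. The 12.9% is thus near the background of both directions together but above that for higher alone, a difference that was not tested. The gene snb-1 is also in the neuronal marker list. The values are given as a description. The Rab GTPase-activating protein gene tbc-7 stood at 98.4 ± 12.9 CPM in control and 267 ± 143 with ΔN-BAR-1 (log2 fold change 1.41 ± 0.44, edgeR adjusted p = 0.113). The SNARE gene ykt-6 had 87.9 ± 39.2 and 238 ± 110 CPM (1.35 ± 0.44, edgeR adjusted p = 0.132). The worm Rab27 gene aex-6, whose name keeps it out of the rule, had 81.3 ± 15.3 and 186 ± 53.2 CPM (1.24 ± 0.43, edgeR adjusted p = 0.169). The other log2 fold changes were 1.24 for the clathrin adaptor gene unc-11, 1.07 for ehs-1, 1.06 for the Arf6 exchange factor gene efa-6, 0.96 for the dynamin gene dyn-1, 0.74 for aps-2 and 0.72 for the synaptobrevin gene snb-1, with edgeR adjusted p between 0.307 and 0.418.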

How the data were processed

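Libraries were made with CEL-seq barcoding and reverse transcription and CEL-seq2 library steps, per the labels' protocols, so 3′ ends were counted. Per gene, the table deposited by the authors holds estimated counts, with no scaling between libraries. The sources used here do not name the aligner, annotation, build or read assignment. The values equal a correction of distinct molecular identifiers, of which there are 256, for chance collisions. At least 99.9% of values above 0 inverted to whole numbers within 0.02. The form of the correction in ΔN-BAR-1 replicate 3 differed slightly from that in the other libraries. Its largest value was 3181.72, against 1597.01 in control replicate 2 and ΔN-BAR-1 replicates 1 and 2. Values at the identifier ceiling are therefore not comparable between libraries. With a common correction 0 trafficking genes were called.

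Counts were rounded, and of 14700 genes the 3447 that passed the filter were tested in 1 model with edgeR 4.0.16 in R 4.3.3 (TMM, filterByExpr with min.count 10 and min.total.count 15, robust quasi-likelihood F test, two-sided, Benjamini-Hochberg, threshold 0.05), with the group as the only term and 3 against 3 libraries. CPM of all genes use the TMM-scaled count of the 3447 tested genes as library size. Standard errors come from the F statistics. Same-group libraries differed beyond counting noise (chi-square per degree of freedom 2.33 to 8.53), so none looks deposited more than once. In control replicate 3, 1 count equals 16.5 CPM, against 4.11 to 7.10 elsewhere.

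Members and lists were chosen with earlier results of these data known. Named genes are the 12 tested members with the smallest p, the MIG-14 route, rab-5, rab-7, rab-10, arf-6 and the highest gene of each role, other genes being named to describe their group. Of 81 names 75 were in the symbol table used. DESeq2 1.42.0 and limma 3.58.1 (voom) were alternatives, with others of scaling, filter, identifier correction, depth, block and omitted libraries. The edgeR model was also tested on simulated data.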

Additional observations from a re-analysis of the deposited data

How the results depend on the processing

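The count of trafficking genes called was 0 under each of the 20 alternatives run, including the omission of each library. The lowest adjusted p of any of them was 0.128 (edgeR, vps-32.1, without ΔN-BAR-1 replicate 1). At an unadjusted p below 0.05 there was 1 gene in thinned counts (vps-4), 2 without replicate 3 of both groups (arf-6 and rab-5), 1 or 2 without each single ΔN-BAR-1 library, and 0 in the other alternatives. All 450 values of the 24 tested named genes kept their side of the threshold. Of the 42 tested genes 18 kept the sign of their fold change throughout and 24 changed it in at least 1 alternative, none of them called. The median log2 fold change of the genes was 0.07 with upper quartile scaling (0.0682) and 0.08 with limma-voom (0.0769), where the median of all genes shifted to −0.09 and −0.05, and 0.25 in thinned counts, where 19 genes were tested. Without single libraries it ran from 0.14 to 0.24. Of all genes tested 1.65% (57 genes) were called. This was 0.94% without a filter (95 higher and 6 lower of 10747), 2.48% with a minimum count of 30 (35 of 1414), 0.261% with limma-voom (9), 3.28% at a threshold of 0.1 (113), 0.725% against a 1.5-fold change (25), 2.39% in thinned counts (36 of 1504), 0.463% without replicate 3 of both groups (17), and 0.3995% to 3.11% without single libraries (16 genes without control replicate 1 to 121 without ΔN-BAR-1 replicate 1). Apart from the different numbers of genes or samples tested, the cause was not tested. A replicate block called 0.551% (19 genes) and 0 trafficking genes, whose median was 0.14. Same-numbered libraries correlated at −0.14, −0.08 and −0.03 after the group means were removed, so the numbers are not treated as pairs. Depth is least in control replicate 3, where 3 transcripts make 49.4 CPM, so lower genes are poorly resolved there.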
